A study of Tegula funebralis with 16 samples.

Results

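CEP164 and ZYG-1 are proteins of the centriole, and this account follows the 2 contigs named for them, of 15903 in the deposited table, in an intertidal snail under heat. SR_contig_10590 carries the name centrosomal protein 164kda-like and SR_contig_2311 the name zygote defective: embryonic lethal family member (zyg-1)-like. They are called the CEP164-like and the ZYG-1-like contig here. Both were chosen by their identifiers because their read counts were low after heating, so the effect of heat on them is described and not tested. The names are those of the table, without sequence to check them against.

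A centriole is a barrel of microtubules that organises the spindle poles of a dividing cell and, docked at the cell surface, forms the base of a cilium. In mammalian cells CEP164 sits on the distal appendages, the spokes that anchor the older centriole to the membrane before a cilium grows. In the worm Caenorhabditis elegans ZYG-1 is the kinase that starts the building of a new centriole, the task that PLK4 has in flies and vertebrates. A snail uses cilia on its gills, gut and foot and in its sperm tails, and centrioles in every tissue that divides.

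RNA was sequenced from whole animals of Chlorostoma (Tegula) funebralis, collected at 4 Californian shores, with no genotype labelled. Heated animals were brought in air from 15 °C to 34 °C in 3 °C steps each 0.5 hours and then held there for 2 hours and 20 minutes, within a trial of 5.5 hours. Control animals spent 5.5 hours in air at 15 °C. La Jolla and Aliso Beach are southern sites, Pigeon Point and Slide Ranch northern ones, and each site gave 2 heated and 2 control libraries, 16 in all. The number of animals in a library is not labelled, so errors measure the spread between libraries. In whole animals, fewer cells of a type and less RNA per cell cannot be told apart. Recovered reads per library ran from 17594009 to 26103215. The first heated and first control libraries of La Jolla and Pigeon Point stand apart from the other 12: SR_contig_83 took 16.6% to 39.2% of their reads, against 1.58% to 6.80% elsewhere.

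The CEP164-like contig had low counts in every heated library. Normalised read counts, which are reads divided by a size factor for each library, were 49.2 and 47.5 in heated snails of La Jolla, against 222 and 194 in controls of that site. At Aliso Beach they were 58.2 and 33.9 in heated and 167 and 173 in control snails. The heated range lay wholly below the control range at both southern sites.

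At Pigeon Point the CEP164-like contig had 62.5 and 46.4 normalised counts in heated snails, against 179 and 222 in controls. At Slide Ranch it had 15.9 and 47.7 in heated snails, against 216 and 226 in controls. The lowest of all 16 values, in Slide Ranch heat 1, rests on 18 reads, with an exact Poisson 95% interval of 10.7 to 28.4 reads. Slide Ranch heat 2 had 49 reads, with an interval of 36.3 to 64.8, so these 2 heated libraries differed by more than counting error, which is all that the intervals cover. Over the 8 heated libraries reads on this contig ran from 18 to 77, and over the 8 controls from 123 to 325.

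Averaged over all sites, the CEP164-like contig had 45.2 ± 14.5 normalised counts in heated snails, against 199.8 ± 24.4 in controls (SD, n = 8 each). The heated mean was 22.6% of the control mean, with a log2 difference of -2.20 ± 0.22 (SE) on the log2(value + 1) scale. The highest heated library, at 62.5, stood below the lowest control, at 167. The relative spread was wider in heated libraries, with a coefficient of variation of 32.2% in heated and 12.2% in control libraries. In the north, which holds Slide Ranch heat 1 with its 18 reads, it was 45.3% and 10.3%, and in the south 21.3% and 13.1%. The part of counting error in this was not tested. For the ZYG-1-like contig the coefficient was 14.9% in heated and 16.5% in control libraries. Without the 4 libraries that stand apart, the means were 41.6 ± 14.8 in heated and 199.6 ± 25.4 in control snails (SD, n = 6 each).

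The ZYG-1-like contig showed the same order of groups. It had 164 and 133 normalised counts in heated snails of La Jolla, against 746 and 501 in controls there. At Aliso Beach it had 145 and 151 in heated and 472 and 559 in control snails. La Jolla control 1, one of the 4 libraries that stand apart, was the highest of the 16.

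In the north the ZYG-1-like contig had 107 and 164 normalised counts in heated snails of Pigeon Point, against 649 and 491 in controls. At Slide Ranch it had 121 and 161 in heated and 630.1 and 654 in control snails. Heated and control libraries did not overlap at any site. Reads behind these values ran from 58 to 192 in heated and from 447 to 886 in control libraries, so the ZYG-1-like values carry less counting error than the CEP164-like ones.

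Over the 4 sites the ZYG-1-like contig averaged 143 ± 21.3 normalised counts in heated snails, against 588 ± 97.1 in controls (SD, n = 8 each). The heated mean was 24.4% of the control mean, a log2 difference of -2.03 ± 0.15 (SE). The highest heated library, at 164, lay below the lowest control, at 472. Without the 4 libraries that stand apart, the means were 146 ± 16.4 in heated and 551 ± 76.5 in control snails (SD, n = 6 each). Both contigs passed the filter of a mean of at least 10 normalised counts, which 14444 contigs passed.

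**Figure D1:**
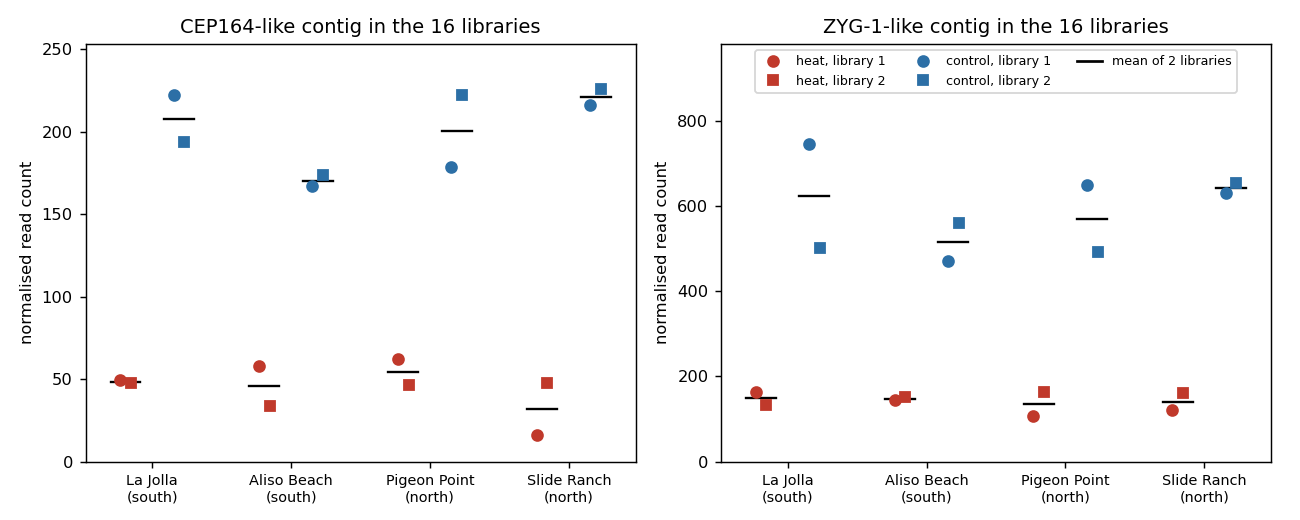
Normalised read counts of the CEP164-like (left) and ZYG-1-like contig (right) by site, with heated libraries (red) left of controls (blue); circles are first and squares second libraries, bars are means of 2. Heated CEP164-like values reach 62.5 at most and control values start at 167; heated ZYG-1-like values reach 164 and controls start at 472.

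Since this contrast chose the 2 contigs, its counts over all contigs are background, and nothing is read from them about these 2. In all, 148 contigs, or 1.02% of those tested, had every heated library below every control. In limma, a linear model with spread shared across contigs, 312 contigs, or 2.16%, were lower in heated snails at a Benjamini-Hochberg adjusted p under 0.05, and 301, or 2.08%, were higher. Ranked by how much lower they were in heated snails, 51 contigs stood ahead of the CEP164-like and 64 ahead of the ZYG-1-like one. Of those, 15 and 20 carried an informative name.

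The heated share of the control mean varied among sites more in the CEP164-like than in the ZYG-1-like contig, through 1 library of Slide Ranch. Heated CEP164-like means were 23.3% of the control mean at La Jolla, 27.1% at Aliso Beach, 27.2% at Pigeon Point and 14.4% at Slide Ranch. For the ZYG-1-like contig the shares were 23.8%, 28.7%, 23.7% and 22.0% in the same order of sites. At La Jolla, Aliso Beach and Pigeon Point the CEP164-like shares, from 23.3% to 27.2%, spanned less than the ZYG-1-like ones, from 23.7% to 28.7%. The low Slide Ranch share of the CEP164-like contig rests on Slide Ranch heat 1, at 15.9 normalised counts against 47.7 in heat 2. Without Slide Ranch heat 1 the averaged log2 difference was -2.01 in place of -2.20.

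The proportion of the contigs to each other overlapped between the treatments. The log2 value of the CEP164-like contig less that of the ZYG-1-like one averaged -1.72 ± 0.61 in heated libraries, against -1.54 ± 0.22 in controls (SD, n = 8 each). The ranges overlapped, from -2.85 to -0.76 in heated and from -1.86 to -1.14 in control libraries. This ratio within a library hardly depends on the size factors. It does not compare their levels, which would need contig lengths that are not used here.

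Inside the treatments the 2 contigs did not track each other closely. Pearson's r between their log2 values was 0.16 over the 8 heated and 0.45 over the 8 control libraries, each given as a description. After the mean of each site and treatment was taken off, it was 0.17 over the 16 libraries, 2 from each group.

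**Figure D2:**
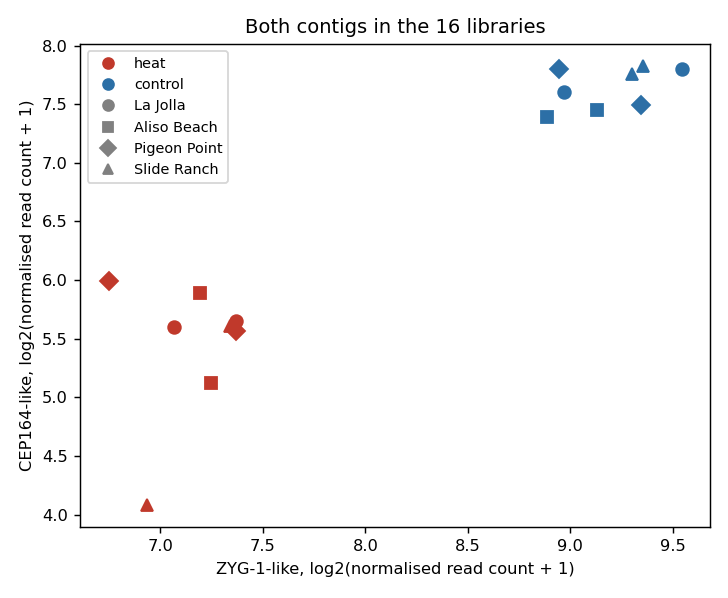
Log2(normalised read count + 1) of the CEP164-like contig against that of the ZYG-1-like contig, 1 point per library, red for heat and blue for control, with a marker for each site. The libraries form 1 heated and 1 control cloud with no overlap on either axis, and within the clouds r is 0.16 (heat) and 0.45 (control); the lowest point is Slide Ranch heat 1.

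The series sets southern against northern snails, and differences between regions and sites were not used to choose the contigs. The CEP164-like contig had 47.2 ± 10.1 normalised counts in southern and 43.1 ± 19.5 in northern heated snails (SD, n = 4 each). The log2 difference was 0.25 ± 0.31 (SE), with a 95% interval from -0.44 to 0.94 and an adjusted p of 0.824 in limma. The ZYG-1-like contig had 148 ± 12.8 in southern and 138 ± 28.7 in northern heated snails, a log2 difference of 0.12 ± 0.21 with an interval from -0.34 to 0.58 and an adjusted p of 0.889 in limma. Neither passed, in a contrast that called 1.16% of contigs. Leaving out Slide Ranch heat 1 gave a CEP164-like value of -0.13, and leaving out heat 2 of that site gave 0.64. Leaving out the 4 libraries that stand apart gave 0.35 for the CEP164-like and -0.11 for the ZYG-1-like contig.

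Among unheated snails, the CEP164-like contig had 189 ± 24.7 normalised counts in southern and 211 ± 21.7 in northern controls (SD, n = 4 each). The difference was -0.16 ± 0.31 on the log2 scale (SE; 95% interval -0.85 to 0.53). The ZYG-1-like contig had 569 ± 123 in southern and 606 ± 77.2 in northern controls, a log2 difference of -0.10 ± 0.21 (interval -0.56 to 0.35). The adjusted p in limma was 0.999 for each, and 0.263% of contigs were called. The spread within each region exceeded the gap between them in both contigs. Leaving out the 4 libraries gave -0.28 for the CEP164-like and -0.15 for the ZYG-1-like contig.

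The difference in the heat effect itself, southern minus northern, was 0.41 ± 0.44 (SE) on the log2 scale for the CEP164-like contig, from -1.996 in the south and -2.41 in the north. For the ZYG-1-like contig it was 0.22 ± 0.29, from -1.92 in the south and -2.14 in the north. The 95% intervals ran from -0.56 to 1.39 and from -0.42 to 0.87, and the adjusted p in limma was 1 for both. A difference of 2-fold thus lies inside the CEP164-like interval in the direction of a smaller southern difference and outside the ZYG-1-like one. Limma called 0 contigs here, 0% of those tested. At an unadjusted p under 0.05 it had 197 of 14444, a share below the cutoff of 0.05 itself. EdgeR and DESeq2, count models run on the recovered reads, called 0 each. With Slide Ranch heat 1 left out the CEP164-like difference was 0.03, and with heat 2 of that site left out it was 0.79. The ZYG-1-like one was 0.07 when Pigeon Point heat 1 was left out and 0.38 when heat 2 of that site was. Leaving out the 4 libraries that stand apart gave 0.63 for the CEP164-like and 0.04 for the ZYG-1-like contig. None of these values passed.

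Sites within a region were compared in the same way. Over both treatments, Pigeon Point less Slide Ranch gave 0.39 ± 0.31 (SE, log2) for the CEP164-like and -0.13 ± 0.21 for the ZYG-1-like contig, with adjusted p of 0.534 and 0.737 in limma and 0.713% of contigs called. La Jolla less Aliso Beach gave 0.20 ± 0.31 and 0.12 ± 0.21, with adjusted p of 0.75 and 0.766 in limma and 0.36% called. Single heated libraries decided the CEP164-like values: the northern one was 0.01 when Slide Ranch heat 1 was left out and 0.77 when heat 2 of that site was. The southern one was 0.01 when Aliso Beach heat 2 was left out and 0.39 when heat 1 of that site was. Leaving out the 4 libraries gave -0.08 in the north and -0.09 in the south for the ZYG-1-like contig, and 0.36 and 0.14 for the CEP164-like one. None of these values passed. By site mean, heated CEP164-like levels ordered as Pigeon Point (54.4 ± 11.4), La Jolla (48.3 ± 1.23), Aliso Beach (46.0 ± 17.2) and Slide Ranch (31.8 ± 22.5), and control levels as Slide Ranch (221 ± 7.13), La Jolla (208 ± 19.8), Pigeon Point (200.2 ± 30.6) and Aliso Beach (170.2 ± 4.59), in normalised counts (SD, n = 2 each). Heated ZYG-1-like levels ordered as La Jolla (149 ± 21.9), Aliso Beach (148 ± 3.98), Slide Ranch (141 ± 27.9) and Pigeon Point (135 ± 40.9), and control levels as Slide Ranch (642 ± 16.996), La Jolla (623 ± 173), Pigeon Point (570.3 ± 112) and Aliso Beach (515 ± 61.6). Aliso Beach controls were last in both contigs. In all 4 orders, the gap between neighbours was within the larger SD of the pair.

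**Figure D3:**
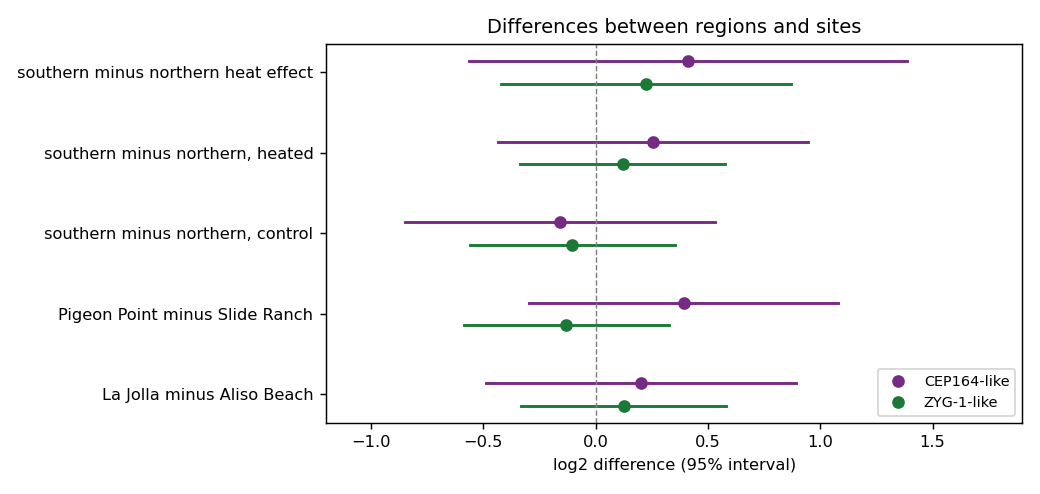
Log2 differences between regions and sites for the CEP164-like (purple) and ZYG-1-like contig (green), with 95% intervals from limma; the first group named is the one on top of the difference. All 10 intervals cross 0, the widest being that of the CEP164-like regional difference in the heat effect, from -0.56 to 1.39.

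The table names 2 other contigs for CEP164, SR_contig_17529 and SR_contig_92662, and neither passed the test for heat. SR_contig_17529 had 256 ± 116 normalised counts in heated and 287 ± 119 in control snails (SD, n = 8 each). On the log2 scale that is a change of -0.23 ± 0.36 (SE) with a 95% interval from -1.03 to 0.56 and an adjusted p of 0.783 in limma. SR_contig_92662 had 266 ± 95.05 in heated and 295 ± 95.02 in control snails, a log2 fold change of -0.17 ± 0.19 with an interval from -0.58 to 0.24 and an adjusted p of 0.672 in limma. Both intervals leave out the value of -2.20 seen in the CEP164-like contig SR_contig_10590. As that contig was chosen for its low heated values, the gap between the 3 is a description.

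Library by library, SR_contig_17529 ranged from 45.1 through a median of 264 to 396 in heated snails, against 81.3, 301 and 487 in controls. SR_contig_92662 ranged from 152 through 258 to 441 in heated snails, against 211, 258 and 495 in controls. Heated and control libraries overlapped across most of the range in both. The 4 libraries that stand apart held the lowest 4 values of SR_contig_17529, 45.1 to 176, against 245 to 487 in the other 12. Without them its log2 fold change was -0.16, and that of SR_contig_92662 was -0.20.

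The 2 other CEP164-named contigs varied together, with r = 0.73 over the 16 libraries on the log2 scale and 0.57 once group means were taken off. With the CEP164-like contig SR_contig_10590 they had r of 0.05 and 0.09. Summed, the 3 contigs had 567 ± 197 normalised counts in heated and 781 ± 190.3 in control snails (SD, n = 8 each). SR_contig_10590 gave 9.38% of that sum on average in heated libraries (2.63% to 20.0%) and 27.1% in controls (14.5% to 43.2%). The highest share of each treatment was in La Jolla heat 1 and La Jolla control 1, both among the 4 libraries that stand apart. There SR_contig_17529 was at its lowest of each treatment, 45.1 and 81.3 normalised counts. A contig may be 1 transcript or a piece of it, so the 3 may belong to 1 gene or to several, and reads could be shared among them.

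**Figure D4:**
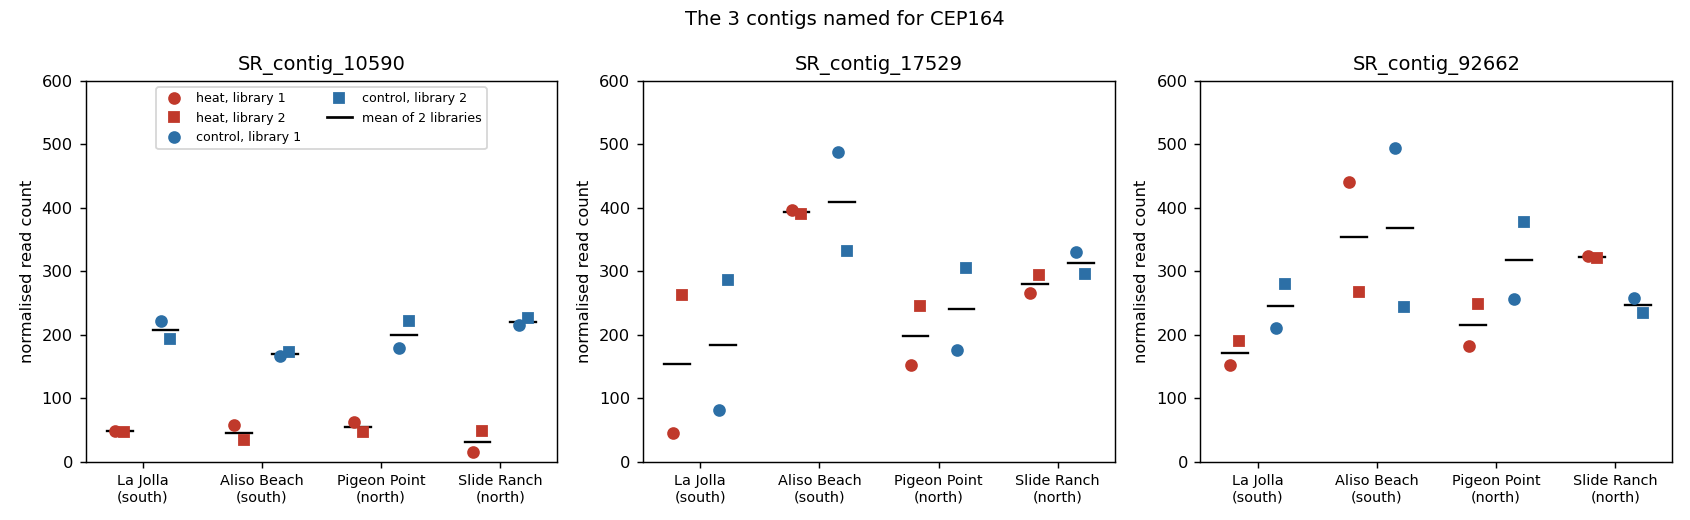
Normalised read counts of the 3 contigs named for CEP164, by site, on a common axis; heated libraries (red) stand left of controls (blue), and bars are means of 2. In SR_contig_10590 heated values (15.9 to 62.5) lie below controls (167 to 226), while heated and control values overlap in SR_contig_17529 (45.1 to 396 and 81.3 to 487) and SR_contig_92662 (152 to 441 and 211 to 495).

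The other contigs named for centriole and centrosome proteins were tested for heat, and their calls are set beside those of all contigs. Over 4 lists of name patterns, of which 2 share 1 contig, 31 were tested beside the 2 chosen contigs: 1 rose and 0 fell in limma at an adjusted p under 0.05, where 4.24% of all contigs were called. At an unadjusted p under 0.05 there were 4 higher and 3 lower. EdgeR called 1 higher and 0 lower, and DESeq2 2 higher and 1 lower. Over all 14444 tested contigs, 2662 had an unadjusted p under 0.05, edgeR called 626 and DESeq2 1313. That background holds for each list below as well. The 31 had a median log2 fold change of -0.08, with 17 below 0, against a median of 0.00 over all tested contigs. Their values ran from -1.10 to 0.54. In the 12 other libraries 1 rose and 2 fell, where 18.8% of all contigs were called, 10.6% higher and 8.22% lower.

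Of 9 contigs for the building of centrioles, 1 rose. It was caltractin (SR_contig_842_C3.2), a centrin, one of the small calcium-binding proteins of the centriole lumen, with 45338 ± 7632 normalised counts in heated and 30903 ± 3749 in control snails (SD, n = 8 each), a change of 0.54 ± 0.13 on the log2 scale (SE, adjusted p = 0.038 in limma). Its call held when Slide Ranch heat 2, Pigeon Point control 1, Pigeon Point heat 2 or La Jolla heat 2 was left out and was lost without any other single library. The second centrin (SR_contig_36845) had -0.10.

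The lowest of this list was centriolar coiled-coil protein CP110 (SR_contig_13729_C3.1), which in mammalian cells caps the end of the centriole and holds back the cilium. It had 29.5 ± 14.4 normalised counts in heated and 58.2 ± 17.5 in control snails, a log2 fold change of -1.10 ± 0.34 (SE) with an adjusted p of 0.109 in limma. It passed in the 12 other libraries, with -0.86 and an adjusted p of 0.0147.

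SAS-6 (SR_contig_21148), the protein of the cartwheel on which a new centriole forms, had a log2 fold change of 0.19 ± 0.19, and centromere protein J (SR_contig_94649), which sets centriole length, had 0.10 ± 0.13. Both contigs named for CEP135, a cartwheel protein, had -0.20 ± 0.11 (SR_contig_8128) and -0.13 ± 0.33 (SR_contig_12333_C3.1). POC5 (SR_contig_55509), a partner of centrin, had -0.18 ± 0.29, and CEP192 (SR_contig_14315_C3.1), which in human cells brings PLK4 to the centriole, had -0.58 ± 0.64. None of these 6 passed, and the CEP192 value rested on single libraries of Pigeon Point. Leaving out heat 1 of that site gave 0.09. Leaving out its heat 2 gave -1.26, which passed, with an adjusted p of 0.0492 in limma. No contig named PLK4 was matched by the pattern.

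Among 6 contigs of the distal and subdistal appendages, the structures to which CEP164 belongs, 0 passed in limma, 0 had an unadjusted p under 0.05, and edgeR and DESeq2 called 0 each. They include the 2 other CEP164-named contigs. CCDC41 (SR_contig_51890) and fas-binding factor 1 (SR_contig_87530), proteins of the distal appendages in mammals, had log2 fold changes of -0.10 ± 0.18 and -0.06 ± 0.21 (SE). Outer dense fiber protein 2 (SR_contig_47452), a scaffold of the subdistal appendages, had -0.28 ± 0.29, and ninein-like protein (SR_contig_100) 0.13 ± 0.18. The list's median was -0.14.

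The list for pericentriolar material and microtubule nucleation gave 13 tested contigs, 11 of them above 0, with a median of 0.26 on the log2 scale. Pericentriolar material is the matrix from which spindle microtubules grow, and the list also takes in subunits of augmin, a separate complex. In limma 0 passed, 3 had an unadjusted p under 0.05, edgeR called 0 and DESeq2 1. Those 3 were augmin subunit HAUS4 (SR_contig_4246, 0.41 ± 0.13), gamma-tubulin complex component GCP4 (SR_contig_74371, 0.42 ± 0.15) and augmin subunit HAUS8 (SR_contig_35398, 0.38 ± 0.17), parts of the machines that start new microtubules.

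Each of 4 further centrosomal contigs had a value below 0, with a median of -0.39 and 0 passing in limma, 2 at an unadjusted p under 0.05 and 0 in edgeR and DESeq2. Centrosome and spindle pole-associated protein CSPP1 (SR_contig_44192) had -0.46 ± 0.19, CEP112 (SR_contig_11047) -0.48 ± 0.21 and CEP128 (SR_contig_37428) -0.32 ± 0.19. CSPP1 passed in the 12 other libraries, with -0.41 and an adjusted p of 0.0411.

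**Figure D5:**
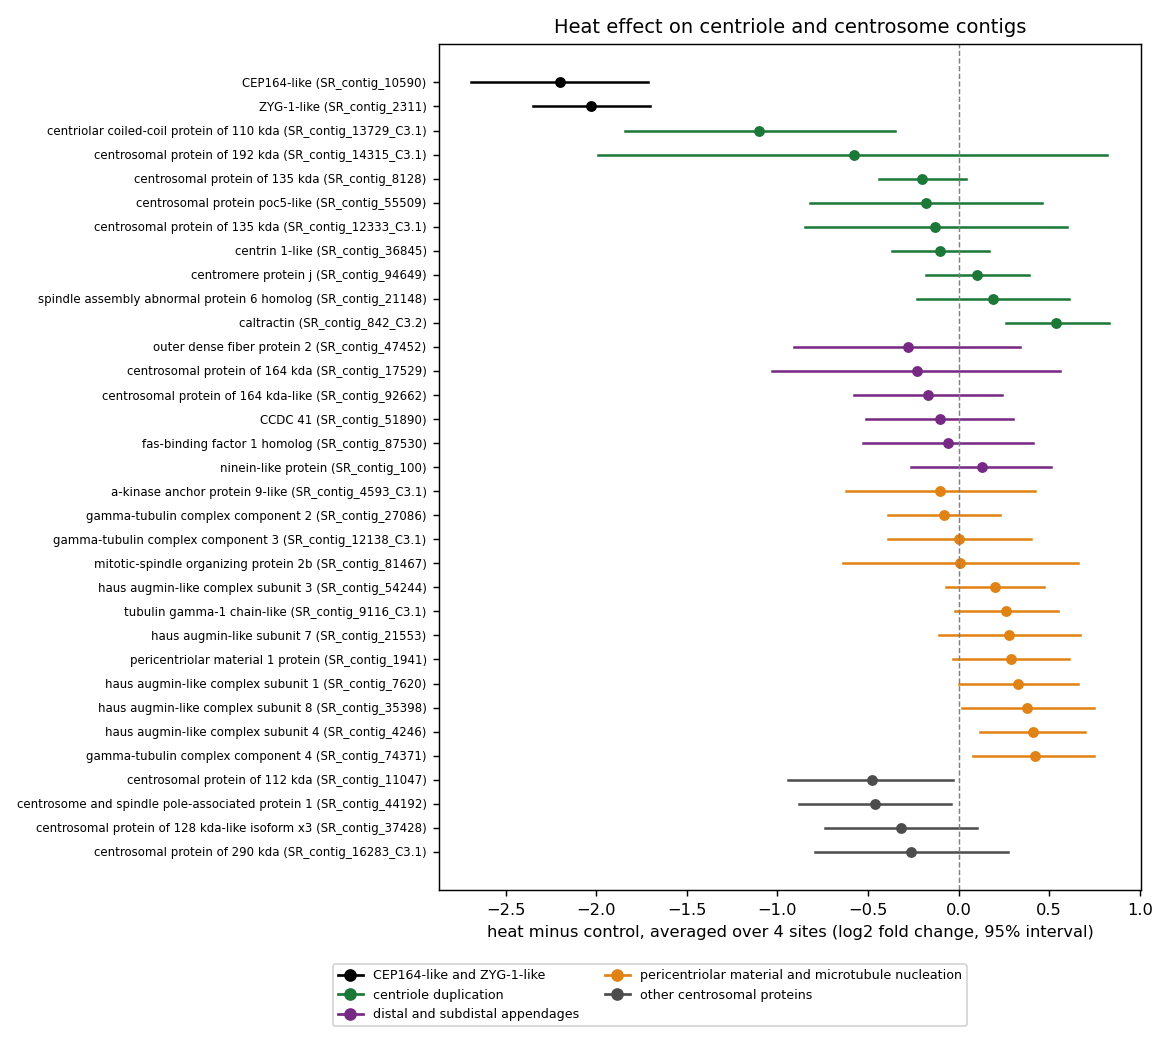
Log2 fold change under heat, averaged over 4 sites, with 95% intervals from limma, for the CEP164-like and ZYG-1-like contigs (black, chosen for their low values in heated snails) and 31 other centriole and centrosome contigs coloured by list. The chosen 2 lie at -2.20 and -2.03 and the others between -1.10 and 0.54.

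Contigs of the processes that use centrioles were set beside these. Of 24 mitotic kinase and checkpoint contigs 2 rose and 0 fell, where 2.08% of all tested contigs were called higher and 2.16% lower. Their median change was 0.22 on the log2 scale. EdgeR called 2 of the 24 higher and 0 lower, and DESeq2 5 higher and 0 lower. A CDK2-associated protein (SR_contig_39370) had 0.79 ± 0.13 (SE, adjusted p = 0.00333 in limma), and cyclin A (SR_contig_715_C3.1), which drives replication and entry into mitosis, had 0.66 ± 0.15 (adjusted p = 0.0273). The cyclin A call was lost without 10 of the 16 libraries taken singly. Cyclin B (SR_contig_11053), which drives mitosis, had 0.57 ± 0.15 (adjusted p = 0.0599). Unadjusted p under 0.05 was reached by 8 of the list, and in the 12 other libraries 5 rose and 1 fell, where 10.6% of all contigs were called higher and 8.22% lower.

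Of 23 cilium assembly contigs, 0 passed in limma, 1 had an unadjusted p under 0.05, and edgeR and DESeq2 called 0 each, with a median of -0.03. IFT88 (SR_contig_1369), part of the train that builds cilia, had 0.25 ± 0.10, and BBS1 (SR_contig_6231), of the complex that sorts cilium membrane proteins, had -0.35 ± 0.18 and passed in the 12 other libraries (-0.40, adjusted p = 0.0275). Tectonic-2 (SR_contig_20121), of the gate at the base of the cilium, had -0.22 ± 0.11. In those 12 libraries 3 of the list fell, where 8.22% of all contigs did.

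Of 14 DNA repair contigs 1 rose and 1 fell, with a median of 0.31, where 2.08% of all contigs were called higher and 2.16% lower. The fall was that of timeless protein (SR_contig_21934), at -2.22 ± 0.32 (adjusted p = 0.00141 in limma), close to the 2 centriole contigs in size. Whether that contig is a DNA repair gene could not be checked without sequence. The list holds another contig named for timeless, protein timeless homolog (SR_contig_7224), which had 0.46 ± 0.24 (adjusted p = 0.35 in limma). It also holds timeless-interacting protein (SR_contig_51156), which had 0.41 ± 0.18 (adjusted p = 0.255 in limma). Both are named here after their values were seen. The rise was that of NBR1 (SR_contig_735_C3.1, 0.53 ± 0.11, adjusted p = 0.014), an autophagy receptor that the name pattern took in; that call was lost without Slide Ranch control 1, Aliso Beach control 2 or Aliso Beach heat 1. FANCE (SR_contig_78314), of the Fanconi repair pathway, had 0.80 ± 0.25 and did not pass. For the whole list edgeR called 1 higher and 1 lower, and DESeq2 3 higher and 1 lower.

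Contigs named for cycling cells and for 4 tissues were set beside the 2 contigs. These lists are name patterns, so their sums need not measure a tissue. The digestive gland list takes in a phospholipase A2, the ovary list oocyte zinc finger names and the muscle list a calponin homology domain protein. All 18 contigs of DNA replication, a mark of cycling cells, were above 0, the median being 0.37 on the log2 scale, and 3 of them rose: the ribonucleotide reductase subunit M2 (SR_contig_604, 0.61 ± 0.13), MCM6 (SR_contig_20491, 0.85 ± 0.19) and DNA polymerase delta (SR_contig_4647_C3.1, 0.53 ± 0.12). Those calls were lost without 9, 11 and 13 of the 16 libraries taken singly, in that order, and 2.08% of all contigs were called higher. The summed level of the 18 ran from 15605 to 40745 in heated and 12231 to 24410.4 in control libraries, in normalised counts. In the 12 other libraries 7 of them rose, where 10.6% of all contigs did. EdgeR called 3 of the 18 higher and 0 lower, and DESeq2 4 higher and 0 lower. Of 62 testis and sperm contigs 0 passed in limma, 9 had an unadjusted p under 0.05, edgeR called 0 and DESeq2 3. Their median was -0.13, with sums from 31169 to 51186 in heated and 33312 to 52874 in control libraries. The patterns took in axonemal dyneins, tektins and radial spoke proteins, parts of cilia in general, and a spermine oxidase, so the list is not particular to the testis. Of the 62, 46 were below 0 and 16 above. The 3 smallest p were those of an axonemal dynein heavy chain (SR_contig_71532, -0.66 ± 0.19), an axonemal dynein light chain (SR_contig_9749, 0.37 ± 0.12) and a spermatogenesis and oogenesis factor (SR_contig_38925, 0.56 ± 0.18). Other axonemal dynein heavy chain contigs with an unadjusted p under 0.05 in limma were also lower, named here after their values were seen. They were SR_contig_22817 (-0.73), SR_contig_1526 (-0.57), SR_contig_1473 (-0.56), SR_contig_1732_C3.1 (-0.56) and SR_contig_5160 (-0.39). A testis derived transcript (SR_contig_15306_C3.1) with such a p was higher, at 0.47. In the 12 other libraries 1 of the 62 rose and 7 fell, where 10.6% of all contigs were called higher and 8.22% lower.

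Of 37 ovary and egg contigs 3 rose in limma, where 2.08% of all contigs did. EdgeR called 1 higher and 0 lower and DESeq2 13 higher and 0 lower, where edgeR called 626 and DESeq2 1313 of all 14444 contigs. In limma 22 of the list had an unadjusted p under 0.05, where 2662 of all contigs did. Vitelline envelope zona pellucida domain 6 (SR_contig_1028_C3.2, 0.67 ± 0.12), an egg coat protein, kept its call without each of the 16 libraries. The calls of vitellogenin receptor (SR_contig_13590, 0.53 ± 0.13), which takes up yolk protein, and of SR_contig_5390 (0.65 ± 0.16), also named for zona pellucida domain 6, were lost without 11 and 13 of the 16 taken singly. The list had a median of 0.46 and sums from 296639 to 713065 in heated and 226194 to 481222 in control libraries. In the 12 other libraries 28 of the 37 rose, where 10.6% of all contigs did. Muscle markers gave a median of -0.01 over 29 contigs, with 0 passing in limma, 4 at an unadjusted p under 0.05, 0 in edgeR and 3 in DESeq2, and sums from 142080.5 to 202693 in heated and 122189.7 to 199658 in control libraries. Of 119 digestive gland contigs 1 fell, where 2.16% of all contigs did. It was endo-beta-glucanase 1 (SR_contig_49504, -0.66 ± 0.14, adjusted p = 0.0235 in limma), a cellulose-digesting enzyme, and the call was lost without 9 of the 16 libraries taken singly. Another endo-beta-glucanase contig (SR_contig_7_C3.1), with far more reads, went the other way. It had 37404 normalised counts in heated and 27196 in control snails, a log2 fold change of 0.46 ± 0.15 (adjusted p = 0.119 in limma). The digestive gland list had a median of 0.17 and sums from 863494 to 1634231 in heated and 728427 to 1085241 in control libraries. EdgeR called 0 of this list higher and 1 lower, and DESeq2 6 higher and 1 lower. In the 12 other libraries 4 muscle contigs rose and 2 fell, and 25 digestive gland contigs rose and 7 fell, where 10.6% of all contigs were called higher and 8.22% lower. The highest heated sums of the replication, ovary and digestive gland lists came from the 4 libraries that stand apart. So did the lowest heated testis sum and the lowest control muscle sum. Median sums in heated and control libraries were 26367 and 19507.5 for replication, 36268 and 38597 for testis, and 495460.5 and 342540.6 for ovary. For muscle they were 179069.6 and 153999, and for digestive gland 1053657 and 867051. No contig of these 5 marker lists was at 0 in any library. The part of these shifts in the low counts of the CEP164-like and ZYG-1-like contigs was not tested. For scale, 14 of 16 heat shock protein contigs rose, where 2.08% of all contigs did, with a median of 3.97.

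The contigs most like each of the 2 over the libraries were found by Pearson's r of log2 values over 16 libraries, among 11325 other contigs with a mean of at least 50. As heated and control libraries form separate clouds, a high r mostly says that a contig was also low in heated snails. Nearest to the CEP164-like contig was SR_contig_3972_C3.1, named fas ligand, which signals cells to die, with r = 0.94 and a log2 fold change of -2.15, followed by the unnamed SR_contig_15512 (r = 0.94), receptor-type tyrosine phosphatase T (SR_contig_610, r = 0.94) and the unnamed SR_contig_56799 and SR_contig_39109 (r = 0.94 and 0.93). The ZYG-1-like contig came next, at place 6 with r = 0.93. Within groups, SR_contig_15512 kept an r of 0.82 with the CEP164-like contig, and fas ligand had 0.43. SR_contig_15512 had 639.5 ± 93.1 normalised counts in heated and 1289 ± 154 in control snails (SD, n = 8 each).

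Nearest to the ZYG-1-like contig were receptor-type tyrosine phosphatase T (SR_contig_610, r = 0.97), the hypothetical protein SR_contig_1790 (r = 0.96), the unnamed SR_contig_475 (r = 0.96), SR_contig_3717 (r = 0.96), named only protein isoform a, and a KLF2-like transcription factor (SR_contig_2247, r = 0.96). Of informative names, UPF0672 protein (SR_contig_30582) and transcription factor AP-4 (SR_contig_5816) followed, each with r = 0.96. AP-4 was also among the named contigs nearest to the CEP164-like one, with r = 0.90. Within groups SR_contig_1790 had r = 0.87 and SR_contig_30582 r = 0.72 with the ZYG-1-like contig, while the KLF2-like factor had -0.28. The CEP164-like contig stood at place 19 of this order.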

How the data were processed

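RNA extracted from whole individual snails was sequenced in 16 libraries. The deposited values are the authors' normalised signal per contig of an assembly whose identifiers begin with SR, the letters the titles use for Slide Ranch; CASAVA and DESeq are named, without versions, per the submitters' processing notes, and the sources used here name no aligner or annotation tool. Within 0.01 of a read, 100% of values were whole multiples of 1 read's worth, so reads were recovered for count models and Poisson intervals.

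Values were tested with limma 3.58.1 (R 4.3.3) on log2(value + 1), a scale that understates changes of low contigs, over 14444 contigs with a mean of at least 10, with 8 groups of 2, a variance trend and Benjamini-Hochberg adjustment at 0.05. Scripts were tested on simulated data. edgeR 4.0.16, DESeq2 1.42.0, other filters, pseudocounts and scalings, a replicate block and leaving out libraries were alternatives.

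The 2 contigs and the lists of name patterns were chosen with earlier results of these data known. Named are the 2, all contigs of the duplication and appendage lists, up to 3 contigs of each other list by smallest p, and for each of the 2 the 5 contigs of highest r and the 5 of highest r with an informative name. Contigs said above to be named after their values were seen are further to these.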

Additional observations from a re-analysis of the deposited data

Results flagged for a closer look

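Among the 4 northern control libraries, the ZYG-1-like contig was low in Pigeon Point control 2, at 491 normalised counts, against 630.1 in the nearest of the other northern controls. The gap made up 0.852 of the range of the group, past Dixon's 95% limit, which chance passes in about 1 in 20 groups. That rate holds for a group looked at alone. The group pools 2 sites, and the other Pigeon Point control, at 649, is one of the 4 libraries that stand apart. The value of 491 lay within the range of the southern controls, 472 to 746.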

How the results depend on the processing

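Under the alternatives other than leaving out single libraries, the CEP164-like log2 difference under heat ran from -2.28 to -2.09 and the ZYG-1-like one from -2.06 to -1.86; without single libraries they ran from -2.39 to -2.01 and from -2.10 to -1.95. Numbers of called contigs depended on the fit. For heat (613) they were 1313 in DESeq2, 3093 with the replicate block, 2712 without the 4 libraries that stand apart, 3531 with a term for those 4, and 403 to 1097 without single libraries. Centriole and centrosome contigs that rose (1) numbered 0 with no filter, 2 in DESeq2, 6 with the block, 5 with the term and 0 to 2 without single libraries; those that fell (0) numbered 1, 2 with the block, 2 without the 4, 3 with the term and 0 to 2. The regional difference in the heat effect gave 2 contigs without the 4. South less north in heated snails (168) gave 792 in DESeq2, 282 with the block, 1354 without the 4, 2019 with the term, 9 in the libraries of the contrast alone and 23 to 351 without single libraries. The same in controls (38) gave 340, 71, 602, 785, 8 and 10 to 51. Pigeon Point less Slide Ranch (103) gave 384 in DESeq2, 302 without the 4, 223 with the term, 25 alone and 39 to 263. La Jolla less Aliso Beach (52) gave 339 in DESeq2, 93 with the block, 178 without the 4, 198 with the term, 24 alone and 32 to 448. The cause was not tested.

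Without the 4, the ZYG-1-like contig turned to -0.11 for south less north in heated snails and to -0.09 for La Jolla less Aliso Beach, neither passing. Without single libraries the CEP164-like south less north difference in heated snails ran from -0.13 to 0.64, and the ZYG-1-like ones from -0.04 to 0.28 in heated and -0.25 to 0.04 in control snails, from -0.29 to 0.02 for Pigeon Point less Slide Ranch and from -0.02 to 0.27 for La Jolla less Aliso Beach. Heat values that turned sign that way ran from -1.26 to 0.09 for SR_contig_14315_C3.1, -0.39 to 0.04 for SR_contig_55509, -0.34 to 0.09 for SR_contig_12333_C3.1, -0.55 to 0.08 for SR_contig_17529, -0.24 to 0.03 for SR_contig_51890 and -0.21 to 0.09 for SR_contig_87530.

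Replicate numbers are not stated to pair libraries: deviations of same-numbered heated and control libraries had r over contigs of 0.64 for La Jolla, 0.10 for Aliso Beach, 0.69 for Pigeon Point and -0.06 for Slide Ranch. With 2 libraries a group and as few as 18 reads on the CEP164-like contig, small differences between sites could not be resolved.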
